A study of Mus musculus with 18 samples.

Results

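Mouse embryonic stem cells on the way to heart muscle were compared 1 day apart, at day 6 (D6) and day 5 (D5) of differentiation. The comparison was set by the day of harvest on the labels, and took 6 of the 18 libraries of the series, 3 at D6 and 3 at D5. Of 23337 genes in the count table, 13116 passed a filter on low counts and all of them are members of the comparison. The filter took in all 18 libraries, so genes that are high only on later days passed it too. The D6 cells and the D5 cells were both untreated, both of the TBX5-FTA line on the A2Lox.cre strain background, and both labelled cardiac progenitor cells. The labels do not say what FTA stands for, and the series holds no parental line to set beside the line. RNA with poly(A) tails was sequenced as single-end reads of 50 bases.

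In this kind of culture, cells leave pluripotency, pass through a stage like the primitive streak, and become mesoderm. Mesoderm of the heart fields then splits into muscle, endothelium, smooth muscle and the epicardial and fibroblast lineages. WNT, BMP, FGF, Nodal, retinoic acid, Notch and Hedgehog signals pattern these steps in the embryo, and the transcription factors GATA4, TBX5, NKX2-5, ISL1, MEF2C, HAND2 and TBX20 mark the heart-forming cells.

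The D6 libraries held 6208403 to 6406717 counts, and the D5 libraries held 6689537 to 7122093. The root-mean-square log2 distance over the tested genes was 0.66 to 0.74 between a D6 and a D5 library, against 0.34 to 0.39 between libraries of the same day. The first principal component of the 6 libraries carried 69.7% of the variance and separated the days. On the second component, with 9.1% of the variance, 1 D6 library (library 3) scored -25.1, and the other D6 libraries scored 11.3 and 13.1. That library had the lowest levels of several heart muscle genes among the D6 libraries, and calls that changed without it are given below for many of the genes named. Whether the 3 libraries of one day were grown as separate cultures is not stated. The p-values therefore reflect only how far libraries of one day lay apart, and that spread may be technical. It was estimated over all 18 libraries of the series, so later days add to it. The cells were sequenced in bulk, so fewer cells of a type and less RNA per cell cannot be told apart.

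At an adjusted p under 0.05 (edgeR's quasi-likelihood test, Benjamini-Hochberg over all tested genes), 4540 genes changed, which is 34.6% of those tested. Of these, 2386 genes (18.2%) were higher at D6 and 2154 (16.4%) were lower at D6. Most changes were small: 2504 of the called genes moved by less than 1.5-fold, and 1159 genes (8.84%) were called and moved by at least 2-fold, 649 of them up and 510 down. The values of D6 and D5 did not overlap for 6400 genes (48.8%), 25.2% of genes being higher at D6 and 23.6% lower. The median log2 fold change, D6 over D5, was 0.01. Levels below are CPM, counts scaled to the library total after TMM normalisation, fold changes are D6 over D5 on the log2 scale, and a ± after a fold change is its SE.

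**Figure D1:**
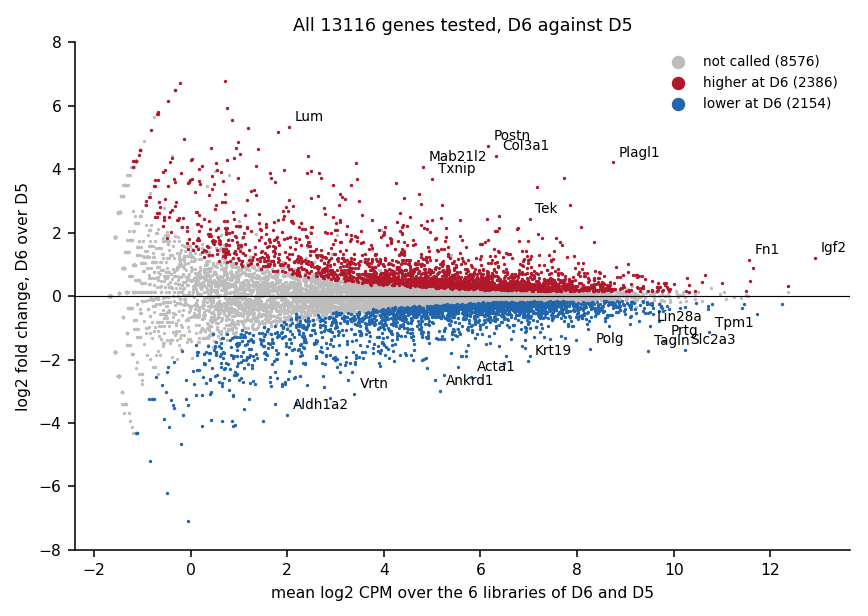
Each point is 1 of 13116 tested genes, with its mean log2 CPM over the 6 libraries on the x axis and its log2 fold change, D6 over D5, on the y axis; red genes were called higher at D6, blue genes lower and grey genes were not called. Matrix genes such as Lum, Postn and Col3a1 lie at the top with Plagl1, and Aldh1a2, Ankrd1 and Acta1 lie at the bottom.

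The progenitor label was checked on 9 heart-field markers. Gata4, a zinc-finger activator of heart genes, had 418, 396 and 327 CPM in the D6 libraries, against 175, 169.7 and 133 CPM in the D5 libraries, with no overlap. Its log2 fold change was 1.26 ± 0.15, adjusted p = 1.29e-05. Tbx5, the T-box factor of the left ventricle and atria, had 20.8, 15.8 and 11.7 CPM at D6, against 6.55, 6.57 and 6.14 CPM at D5. All 3 D6 values of Tbx5 lay above the D5 values, and the log2 fold change was 1.33 ± 0.47, adjusted p = 0.0451. That call did not hold in 8 of the alternatives tried, among them 5 of the 6 fits with 1 library left out (adjusted p = 0.0844 to 0.154 in those 5), although the fit of the D6 and D5 libraries alone gave an adjusted p of 7.83e-06. Tbx20, Hand2 and Pdgfra were also called higher, at log2 fold changes of 0.51, 0.64 and 0.74. Mef2c had 166, 122 and 94.9 CPM at D6 and 92.7, 80.8 and 64.9 CPM at D5, and did not pass the test (adjusted p = 0.0652), though it passed without D6 library 3 (0.0351) and with DESeq2 (0.03). Isl1, a marker of the second heart field, had 13.9, 9.34 and 6.02 CPM at D6 and 16.6, 17.8 and 11.3 CPM at D5, which overlap (adjusted p = 0.16). Kdr, the VEGF receptor of early cardiovascular mesoderm, averaged 76.4 ± 16.4 CPM at D6 and 66.4 ± 7.92 CPM at D5 (SD, n = 3 each). Nkx2-5 was close to the limit of counting in these libraries, with 10, 10 and 2 counts at D6 and 3, 15 and 1 counts at D5. The other 8 markers had at least 38 counts in each of the 6 libraries, so Nkx2-5 was the exception to the label.

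The strongest group among the rises was extracellular matrix. Of 16 fibroblast and matrix genes, all of which passed the filter, 14 rose and none fell, against 18.2% and 16.4% of all tested genes. The median log2 fold change of the 16 was 1.39, and together they took 0.893% to 1.01% of all counts at D6, against 0.407% to 0.442% at D5. Without Fn1, the most abundant member, the shares were 0.467% to 0.521% at D6 and 0.212% to 0.218% at D5. Lum (lumican, a proteoglycan that orders collagen fibres; chr10:97565128-97572703, GRCm38) had the largest fitted rise of the genes named here with counts on both days. It had 25.4, 24.2 and 27.1 CPM in the D6 libraries and 0, 0.14 and 1.64 CPM in the D5 libraries, a log2 fold change of 5.35 ± 0.66, adjusted p = 3.24e-05. Postn (periostin, a matrix protein of valves and fibroblasts) had 314, 324 and 458 CPM at D6, against 12.4, 13.4 and 15.4 CPM at D5. The 3 D6 libraries lay far above every D5 library, at a log2 fold change of 4.73 ± 0.43, adjusted p = 2.29e-06. Col3a1, the type III collagen chain, had 375, 329 and 411 CPM at D6, against 18.2, 15.5 and 17.9 CPM at D5 (log2 fold change 4.43 ± 0.20, adjusted p = 1.74e-09). Col1a2 and Col1a1, the type I collagen chains, rose by 3.44 and 2.19 on the log2 scale. Dcn (decorin) rose by 3.87, to 22.2 ± 2.96 CPM at D6, against 1.49 ± 0.397 CPM at D5 (SD, n = 3 each). Fn1, fibronectin, which was already abundant, averaged 4513 ± 308 CPM at D6 and 2028 ± 151 CPM at D5 (SD, n = 3 each; log2 fold change 1.15). The 2 members that did not pass were Vcan (log2 fold change -0.19, adjusted p = 0.489) and Thy1, a fibroblast surface marker that had at most 1 CPM in any library of either day. Col6a2, a chain of microfibrillar collagen, rose by 1.13 (SE 0.14). Each of the 6 fits that left out 1 library called 14 rises in the list.

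**Figure D2:**
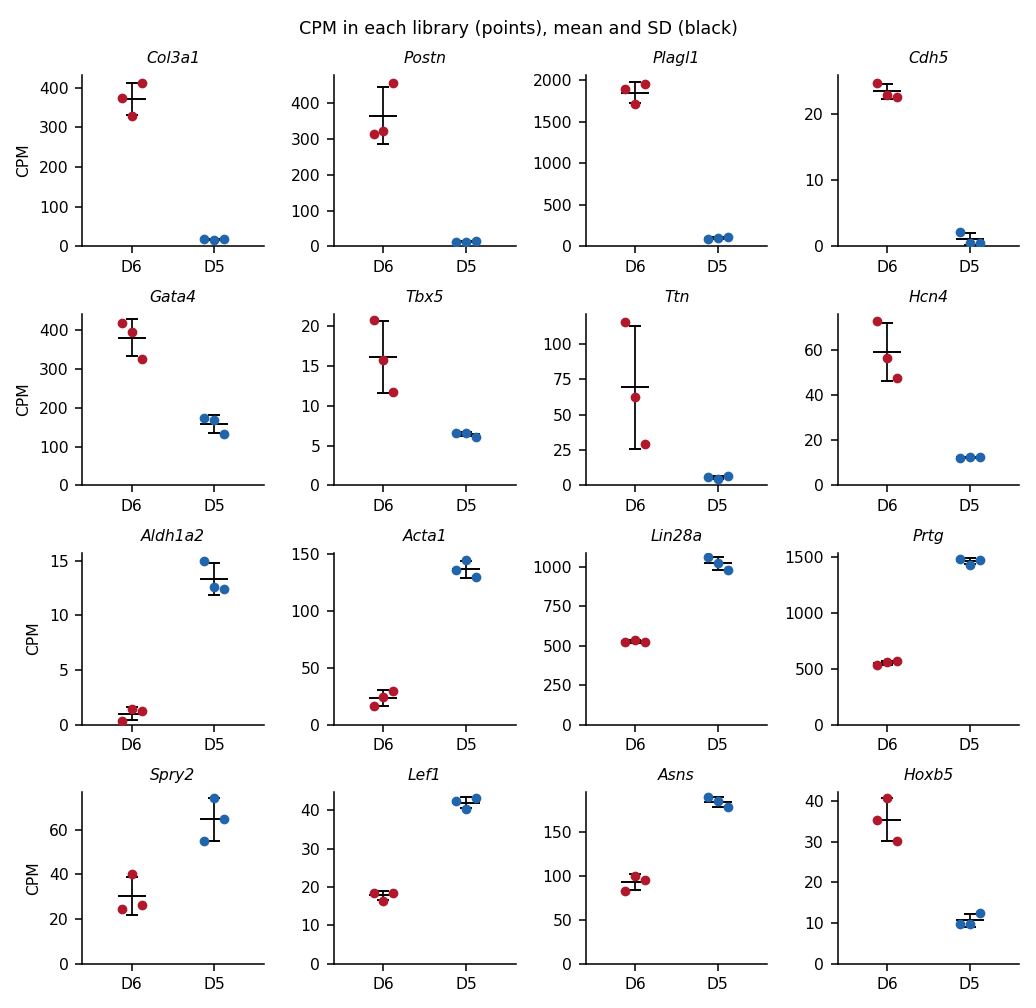
Each panel shows 1 gene in CPM, with the 3 D6 libraries in red on the left, the 3 D5 libraries in blue on the right, and the mean with its SD in black; every y axis starts at 0. In all 16 panels the D6 and D5 points do not overlap, and the D6 points of Tbx5, Ttn and Hcn4 are spread more widely than their D5 points.

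Among transcription factors of the heart, rises outnumbered falls. Of 20 tested genes of 21 listed, 9 rose (45.0%, against 18.2% of all genes), 3 fell and 8 did not pass, with a median log2 fold change of 0.54. Beside Gata4, Tbx5, Tbx20 and Hand2, the risers were Gata5, Gata6, Tbx2, Smyd1 and Zfpm2. Zfpm2 (FOG2, a cofactor of GATA4) had 40.4, 37.1 and 37.1 CPM at D6, against 11.4, 13.7 and 9.82 CPM at D5, and a log2 fold change of 1.72 ± 0.11, adjusted p = 1.33e-12. Tbx2, a repressor that holds back chamber muscle in the atrioventricular canal, rose by 1.76 (SE 0.17, adjusted p = 1.23e-08). Its close relative Tbx3 went the other way, with 25.8, 32.2 and 23.3 CPM at D6 and 85.1, 97.4 and 119.6 CPM at D5, and a log2 fold change of -1.89 ± 0.17, adjusted p = 1.16e-08. Srf (log2 fold change -0.63) and Hey2 (-1.04) were the other genes that fell, and Hey2 lost its call without D6 library 2 or D5 library 3 (adjusted p = 0.0616 and 0.0696). Leaving out 1 library in turn gave 7 to 10 rises and 2 to 3 falls. Hand1 had 593 ± 63.6 CPM at D6 and 585 ± 132 CPM at D5 (SD, n = 3 each), and did not pass (adjusted p = 0.941).

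The share of sarcomere genes called was near that of all genes. All 28 passed the filter, 5 rose (17.9%, against 18.2% of all genes), 4 fell (14.3%, against 16.4%) and 19 did not pass the test, while the median log2 fold change was 1.17. Ttn (titin, the spring of the sarcomere; chr2:76703980-76982547, GRCm38) had 116, 62.5 and 29.3 CPM in the D6 libraries, against 5.97, 4.75 and 6.82 CPM in the D5 libraries. Every D6 library was above every D5 library, and the D6 values were far apart among themselves. The log2 fold change was 3.56 ± 0.75, adjusted p = 0.00262. Tnni1 (slow skeletal troponin I, the embryonic form of the heart) rose by 2.12 (SE 0.27, adjusted p = 5.19e-05) and Mybpc3, myosin-binding protein C, by 3.22. Tnnt2, cardiac troponin T, had 307, 278 and 209 CPM at D6, against 130.1, 121 and 107 CPM at D5 (log2 fold change 1.15 ± 0.34, adjusted p = 0.0191), and lost its call without D6 library 1, D5 library 2 or D5 library 3 (adjusted p = 0.0526 to 0.0655). Ttn lost its call with limma-voom (adjusted p = 0.0603). Des, the muscle intermediate filament desmin, rose by 1.03. The genes that fell were Tnnc1 (log2 fold change -1.35 ± 0.39, adjusted p = 0.016), Cryab, Tpm1 and Acta1, the skeletal alpha-actin that is also made in fetal heart. Tnnc1 had 66.5, 66.0 and 53.4 CPM at D6 and 166, 159.9 and 149 CPM at D5, and its call was lost without D6 library 3 (adjusted p = 0.0578). Myh6, the alpha myosin heavy chain, had 53.5, 31.6 and 14.7 CPM at D6 and 7.28, 9.37 and 6.68 CPM at D5. It missed the threshold (adjusted p = 0.0998), though it passed with DESeq2 (0.00357). Myl7 and Myh7 had overlapping values, and Actc1, cardiac alpha-actin, averaged 105 ± 32.9 CPM at D6 and 163 ± 12.3 CPM at D5 (SD, n = 3 each; adjusted p = 0.396).

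Tpm1, which fell, was the most abundant sarcomere gene at both days, at 1149 ± 108 CPM at D6 and 2539 ± 146 CPM at D5 (SD, n = 3 each). The summed share of the sarcomere list was lower at D6, at 0.215% to 0.262% of counts, than at D5, at 0.338% to 0.38%. Without Tpm1 the other 27 genes took 0.0941% to 0.157% at D6 and 0.093% to 0.106% at D5, which overlap. In single genes, 14 members had D6 values that lay above the D5 values without overlap and 5 had D6 values below them, beside 25.2% and 23.6% of all genes. The spread among the D6 libraries went with a library: library 1 was highest and library 3 lowest for Ttn, Myh6, Tnnt2, Myl7, Tbx5 and Mef2c, and the part of library quality in this was not tested. The call count of the list depended on the test, with 12 rises among the 21 members tested when the D6 and D5 libraries were fitted alone, 11 with DESeq2, 3 with limma-voom and 3 without any 1 of D6 library 1, D5 library 2 or D5 library 3.

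Genes of rhythm and calcium handling gave 6 rises (23.1%) and 1 fall (3.85%) among 26 tested, against 18.2% and 16.4% of all genes, with a median log2 fold change of 0.71. Hcn4, the pacemaker channel of the sinus node and of the earliest heart muscle, had 72.9, 56.4 and 47.7 CPM at D6, against 12.2, 12.6 and 12.4 CPM at D5, a log2 fold change of 2.25 ± 0.19, adjusted p = 1.57e-07. Slc8a1, the sodium-calcium exchanger, rose by 2.46, and Kcnh2, the channel of the rapid repolarising current, by 1.80. Jph2, which ties the calcium store to the cell surface, fell by 0.63 (adjusted p = 0.0182), a call lost without D6 library 1 or 3 or D5 library 1 or 2 (adjusted p = 0.0525 to 0.0615). Corin, a protease that processes natriuretic peptide in heart muscle, rose by 4.21, to 44.6 ± 6.53 CPM at D6, against 2.41 ± 1.06 CPM at D5 (SD, n = 3 each).

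Several markers of the epicardium were higher at D6. Of 9 tested, 5 rose (55.6%, against 18.2% of all genes) and 2 fell (22.2%, against 16.4%), at a median of 1.68. Tbx18, a T-box factor of the proepicardium and sinus venosus, had 19.6, 20.8 and 18.9 CPM at D6, against 1.02, 1.4 and 1.36 CPM at D5, and a log2 fold change of 3.95 ± 0.30, adjusted p = 7.54e-09. Wt1 (the Wilms tumour factor of the epicardium) had 32.4, 32.2 and 28.4 CPM at D6 and 10.04, 9.64 and 9.27 CPM at D5, with a log2 fold change of 1.68 ± 0.10, adjusted p = 3.6e-13. Bnc1 (basonuclin) and Upk3b, both markers of the mesothelial layer, rose by 1.72 and 1.16, and Upk1b by 3.21. The members that fell were Krt19, at a log2 fold change of -2.05 ± 0.10, adjusted p = 1.97e-14, and Sema3d, at -1.79 ± 0.19, adjusted p = 1.82e-06. Tcf21 had 6.4 CPM at D6 and 9.16 CPM at D5 on average, and did not pass (adjusted p = 0.149).

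Endothelial genes gave 10 rises and 4 falls among 22 tested, with a median of 0.68. Rises were 45.5% of the list, against 18.2% of all genes. Falls were 18.2% of the list, near the 16.4% of all genes. The list took 0.0482% to 0.0561% of counts at D6, against 0.0209% to 0.0239% at D5. Tek alone held most of that rise in share: the other 21 genes took 0.019% to 0.022% at D6, against 0.0155% to 0.0175% at D5. Tek, the receptor of angiopoietins, had 285, 287 and 336 CPM at D6, against 52.2, 52.3 and 62.0 CPM at D5, without overlap, and a log2 fold change of 2.45 ± 0.17, adjusted p = 6.93e-08. Cdh5, VE-cadherin of the endothelial junction, had 24.8, 23.0 and 22.7 CPM at D6 and 2.18, 0.559 and 0.545 CPM at D5, a log2 fold change of 4.42 ± 0.69, adjusted p = 0.000249. Tie1, a partner of Tek, rose by 3.88, and Cd34 by 2.88. The 4 members that fell were Etv2, Flt1, Lmo2 and Nfatc1. Etv2, the master factor of endothelial and blood progenitors, had 1.07, 0.306 and 0.634 CPM at D6 and 4.37, 3.91 and 5.32 CPM at D5 (log2 fold change -2.72 ± 0.49, adjusted p = 8.97e-05), and Flt1, a decoy VEGF receptor, fell by 1.93 on the log2 scale. Lmo2 and Nfatc1 fell too, by 1.43 and 1.33, and Lmo2 lost its call without D5 library 2 (adjusted p = 0.0599). The general marker Pecam1 did not pass, with 10.7 ± 1.13 CPM at D6 and 6.75 ± 2.12 CPM at D5 (SD, n = 3 each; adjusted p = 0.179). Of 5 tested blood genes of 12 listed, Tal1 and Runx1 fell, by 1.47 and 1.12, and the embryonic globin Hbb-bh1 rose to 3.48 CPM at D6, against 0.287 CPM at D5 (log2 fold change 3.53). Itga2b, the early blood integrin, did not pass (adjusted p = 0.109), and Runx1 lost its call without D6 library 3 or D5 library 1 (adjusted p = 0.0588 and 0.0657). The part of cell numbers in the matrix, epicardial and endothelial values was not tested.

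**Figure D3:**
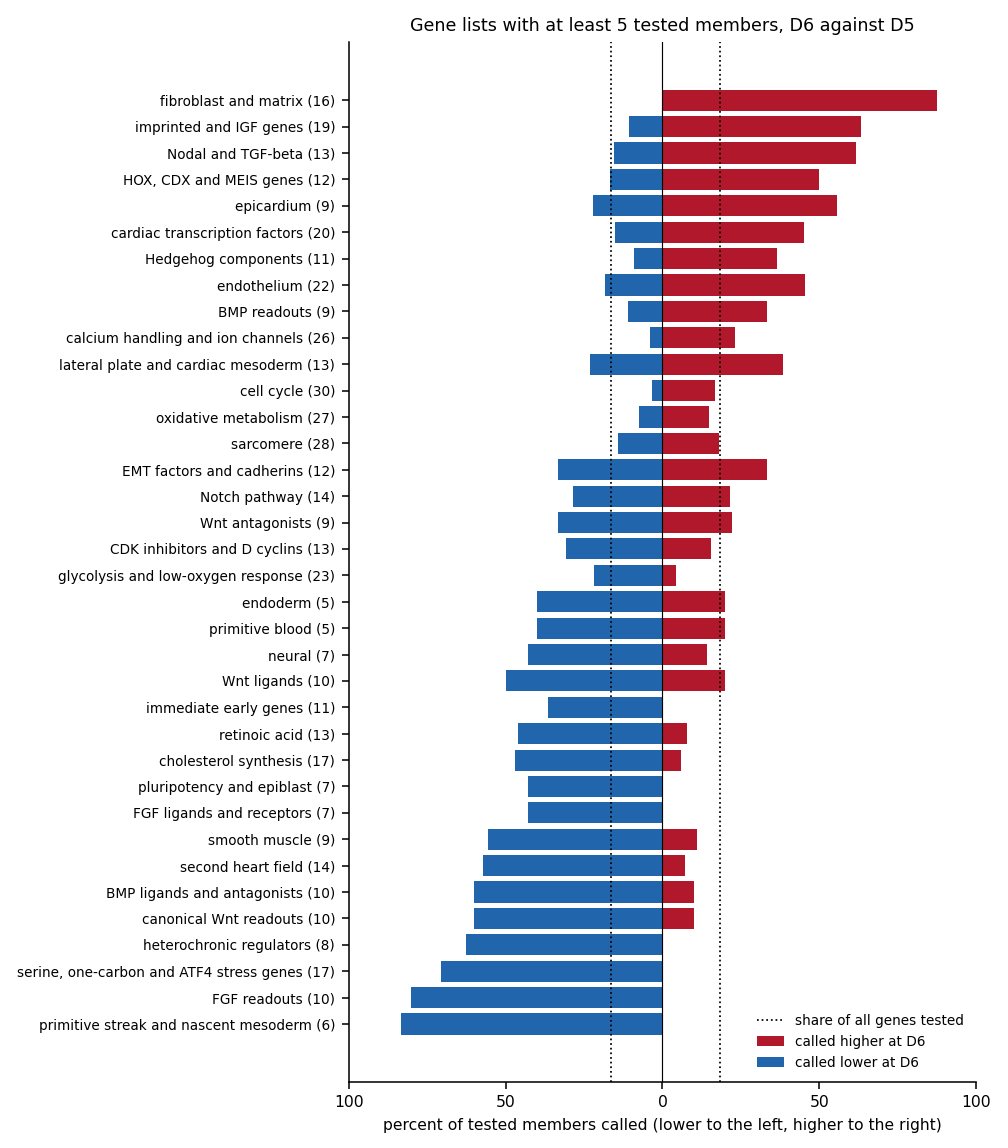
Bars give the percent of the tested members of each gene list that were called higher at D6 (red, right) or lower at D6 (blue, left), with the number tested in brackets, and dotted lines mark the 18.2% and 16.4% of all genes tested. The fibroblast and matrix list reaches furthest to the right, and the primitive streak, FGF readout and ATF4 lists reach furthest to the left.

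Genes of the primitive streak and nascent mesoderm were lower at D6. Only 6 of 17 listed genes passed the filter, so the group is judged on few genes. Of these, 5 fell (83.3%, against 16.4% of all genes), at a median of -1.99. Eomes, the T-box factor that starts cardiac mesoderm, had 0.918, 0.766 and 0.159 CPM at D6, against 5.24, 7.55 and 5.32 CPM at D5, a log2 fold change of -3.25 ± 0.51, adjusted p = 2.04e-05. Wnt3 and Lhx1 fell by 1.98 and 2.96, and Nodal fell to 0.306, 0.613 and 0.476 CPM at D6, against 1.6, 2.1 and 2.05 CPM at D5 (adjusted p = 0.0268), a call lost with DESeq2 and without any library but D5 library 1 (adjusted p = 0.0502 to 0.102). T (Brachyury) had no count at D6 and 14 counts over the D5 libraries, at least 4.27-fold lower with D6 set at 3 counts over the group, and Mesp1 had no count at D6 and 7 at D5. Without D6 library 3, or without D5 library 2, 3 falls were called.

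Pluripotency genes fell in part. Of 7 tested genes of 15 listed, 3 fell (42.9%, against 16.4% of all genes) and none rose, against 18.2% of all genes. Pou5f1, the core pluripotency factor, had no count in any D6 library and 2.91, 2.94 and 2.18 CPM in the D5 libraries (57 counts over the D5 libraries), at least 17.4-fold lower at D6 with D6 set at 3 counts over the group. Sall4 had 83.04, 67.4 and 72.0 CPM at D6, against 138, 139 and 139.6 CPM at D5 (log2 fold change -0.91 ± 0.09, adjusted p = 9.52e-09), and Dnmt3b, the embryonic de novo methyltransferase, fell by 0.72. Klf4, another pluripotency factor, did not pass (log2 fold change -0.43, adjusted p = 0.0522), though it passed with the D6 and D5 libraries alone (0.0123). L1td1 and Vrtn, named by their large falls, had 2.75 and 3.46 CPM at D6, against 15.9 and 29.5 CPM at D5.

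The second heart field list fell, with 8 of 14 tested genes lower (57.1%, against 16.4% of all genes) and 1 higher (7.14%, against 18.2%) at D6. The median was -0.99, and leaving out 1 library in turn gave 7 to 9 falls and 1 to 2 rises. Aldh1a2, which makes retinoic acid and led the 15 largest falls (chr9:71215789-71296243, GRCm38), had 0.306, 1.38 and 1.27 CPM at D6, against 14.99, 12.6 and 12.4 CPM at D5. Its log2 fold change was -3.74 ± 0.33, adjusted p = 7.54e-09. Fgf10, a growth factor of the second heart field, had 30.3, 42.7 and 48.7 CPM at D6 and 74.7, 80.1 and 78.4 CPM at D5 (log2 fold change -0.94 ± 0.15, adjusted p = 5.11e-05). Prdm1, Osr1, Foxc1 and Foxc2 fell as well, by 2.76, 2.37, 1.20 and 1.48. Wnt11 was the exception, at 23.9, 27.7 and 22.2 CPM at D6, against 2.62, 2.66 and 3.14 CPM at D5, a log2 fold change of 3.12 ± 0.17, adjusted p = 2.32e-14.

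Of 13 tested retinoic acid genes, Aldh1a2 among them, 6 fell (46.2%, against 16.4% of all genes) and 1 rose (7.69%, against 18.2%). Rdh10, which makes the retinal that Aldh1a2 oxidises, fell by 1.59 (SE 0.19, adjusted p = 9.95e-08), and the receptors Rarg and Rarb by 1.03 and 0.95. Crabp2, a carrier of retinoic acid, rose by 1.01 (adjusted p = 0.00233).

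Hox genes give mesoderm its position along the body axis and are placed in clusters in the order of that axis. Among 12 tested Hox and Meis genes, 6 rose (50.0%, against 18.2% of all genes) and 2 fell (16.7%, against 16.4%), at a median of 0.24. The HoxB cluster rose: Hoxb2, Hoxb3, Hoxb4, Hoxb5, Hoxb6 and Hoxb8 were higher at D6, at log2 fold changes of 0.59, 0.49, 1.47, 1.73, 2.41 and 1.79. Hoxb5 (chr11:96303336-96306121, GRCm38) had 35.3, 40.7 and 30.3 CPM at D6, against 9.75, 9.78 and 12.4 CPM at D5, a log2 fold change of 1.73 ± 0.17, adjusted p = 4.35e-09. Hoxb4 had 57.7, 62.3 and 50.7 CPM at D6, against 16.3, 21.0 and 24.3 CPM at D5 (log2 fold change 1.47 ± 0.14, adjusted p = 3.75e-09). The first gene of the cluster, Hoxb1, did not differ by the test, with 108, 115 and 78.8 CPM at D6 and 106, 125 and 112 CPM at D5, which overlap (adjusted p = 0.247). In another cluster, Hoxd1 fell by 2.85. By day, the mean of Hoxb5 was 10.6 CPM at D5, 35.4 at D6, 19.6 at D7 and 10.8 at D8. Of 44 Hox, Cdx and Meis genes listed, 32 did not pass the filter, so the HoxA, HoxC and HoxD clusters are mostly unmeasured here.

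Most regulators of developmental timing fell. Of 8 genes, all tested, 5 fell (62.5%, against 16.4% of all genes) and none rose, against 18.2% of all genes. Prtg (protogenin, a receptor of early mesoderm and neural tube) had 528, 559 and 567 CPM at D6, against 1477, 1426 and 1473 CPM at D5, a log2 fold change of -1.40 ± 0.07, adjusted p = 1.95e-14. Lin28a, which blocks maturation of let-7 microRNAs, had 521, 535 and 522 CPM at D6 and 1060.0, 1021 and 980.5 CPM at D5, a log2 fold change of -0.96 ± 0.07, adjusted p = 7.56e-12. Its paralog Lin28b and the let-7 targets Hmga2 and Trim71 fell by 0.39, 0.38 and 0.66. The other 3 members, the RNA-binding genes Igf2bp1, Igf2bp2 and Igf2bp3, had log2 fold changes of 0.04, 0.03 and 0.11 and did not pass. Each fit that left out a library called 5 falls.

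**Figure D4:**
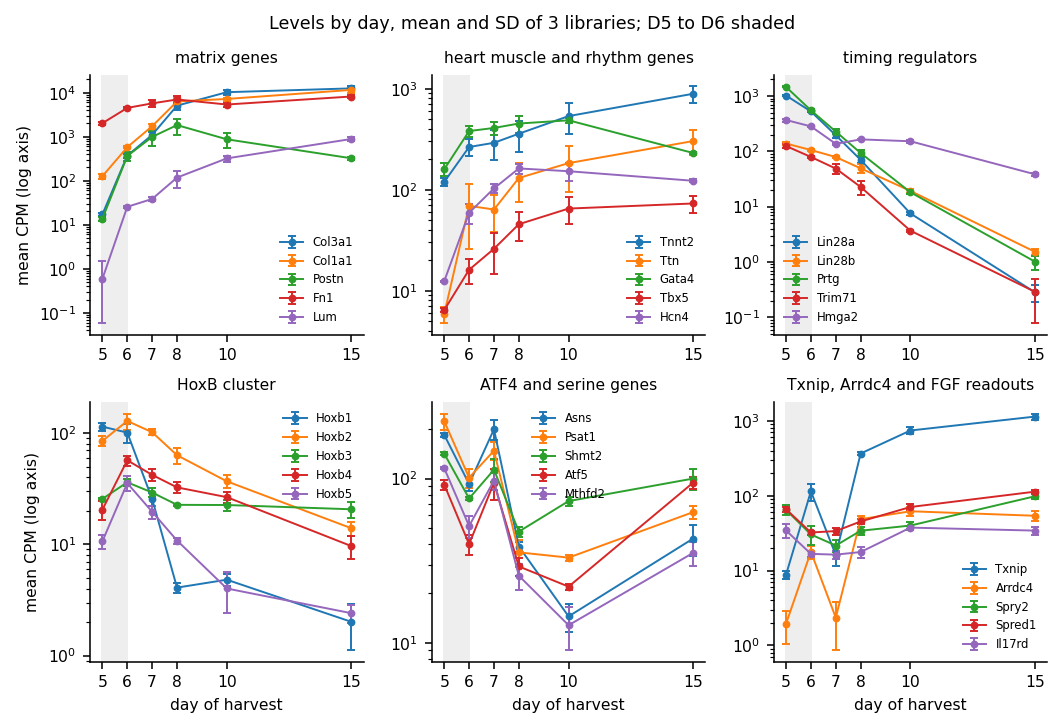
Mean CPM by day of harvest on a log axis, with SD bars over 3 libraries (a lower bar is cut short where the SD would reach 0); the span from D5 to D6 is shaded. Matrix genes are higher at D6 than at D5, the timing regulators Lin28a and Prtg are lower at D6 and lower again at D7, Hoxb4 and Hoxb5 have their highest mean at D6, and Txnip and Arrdc4 are high at D6, low at D7 and high again at D8.

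FGF readouts, genes that FGF receptor signalling switches on and many of which feed back on it, showed 8 falls and no rise among 10 tested, at a median of -1.11. The falls were 80.0% of the list, against 16.4% of all genes. Spred1, an inhibitor of the RAS pathway, had 30.1, 34.2 and 32.5 CPM at D6, against 71.3, 62.3 and 63.9 CPM at D5 (log2 fold change -1.03 ± 0.10, adjusted p = 1.45e-09). Spry2 (Sprouty 2) had 24.5, 40.3 and 26.3 CPM at D6 and 54.9, 74.2 and 65.0 CPM at D5 and a log2 fold change of -1.09 ± 0.16, adjusted p = 2.85e-05. Il17rd (SEF) fell by 1.04, and Spry1, Dusp6, Etv5, Etv4 and Spred2 fell as well. Among ligands and receptors, Fgf10, Fgfr1 and Fgfr3 fell, by 0.94, 0.52 and 0.41. Fgf9 had 0.408 ± 0.707 CPM at D6 and 0.0454 ± 0.0787 CPM at D5 (SD, n = 3 each), and did not pass (adjusted p = 0.102). It passed without D6 library 1 or 3 (0.0396 and 0.0392), but had only 8 counts over the D6 libraries and 1 over the D5 libraries.

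Canonical Wnt readouts gave 6 falls and 1 rise among 10 tested (median -0.93). The falls were 60.0% of the list, against 16.4% of all genes, while 18.2% of all genes rose. Lef1, a partner of beta-catenin, had 18.5, 16.4 and 18.4 CPM at D6, against 42.3, 40.4 and 43.2 CPM at D5, a log2 fold change of -1.24 ± 0.16, adjusted p = 4.02e-07. Dkk1, a feedback antagonist, had 7.65, 8.12 and 9.83 CPM at D6 and 36.8, 28.8 and 34.4 CPM at D5 (log2 fold change -1.96 ± 0.24, adjusted p = 5.76e-07), and Axin2 fell by 0.62. Ccnd1 (cyclin D1) fell by 2.26, with 78.4% of its 50-base stretches unique to it. Sp5, a direct target of the pathway, fell by 1.88 (adjusted p = 0.013), a call lost without D6 library 3 or D5 library 2 (0.0677 and 0.0691). Lgr5 had 1 count over the D6 libraries and 38 over the D5 libraries, a ratio of 0.0287 scaled to depth with a 95% exact counting interval of 0.000709 to 0.17. Nkd1 was the exception, with a rise of 0.52. Ligands were divided, with Wnt4 at 9.18, 18.4 and 21.1 CPM at D6 and 91.4, 97.4 and 84.1 CPM at D5 (log2 fold change -2.49 ± 0.25, adjusted p = 1.34e-06) and Wnt2b lower by 1.31, while Wnt2 was higher, at 1.56. Secreted antagonists were divided too: Sfrp1 had 227, 192 and 179.6 CPM at D6, against 43.5, 35.2 and 26.3 CPM at D5 (log2 fold change 2.51 ± 0.18, adjusted p = 7.83e-08), and Sfrp5 rose by 2.01, while Frzb fell by 1.18.

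BMP ligands and antagonists gave 6 falls and 1 rise among 10 tested. Bmp4, the ventral mesoderm ligand, had 145, 174 and 181 CPM at D6, against 303, 316 and 293 CPM at D5 (log2 fold change -0.87 ± 0.12, adjusted p = 1.32e-05), and Bmp2 fell by 0.87. Of 9 readouts, Id1, Id2 and Id3 rose, by 0.55, 0.99 and 0.53, and Msx2 fell by 1.56. Those are 33.3% and 11.1% of the readouts, against 18.2% and 16.4% of all genes. Both Id1 and Id3 lost their call without D6 library 2 (adjusted p = 0.0568 and 0.0564), and Id3 also without D5 library 1 (0.0537). Bmper, a modulator of BMP outside the cell, fell by 1.48.

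Of 13 tested Nodal and TGF-beta genes, 8 rose (61.5%, against 18.2% of all genes) and 2 fell (15.4%, against 16.4%), at a median of 0.66. The receptors rose together: Tgfbr3 had 226, 211 and 261 CPM at D6, against 65.6, 62.2 and 82.8 CPM at D5 (log2 fold change 1.73 ± 0.19, adjusted p = 9.04e-06), and Tgfbr1 and Tgfbr2 rose by 0.72 and 0.82. Tgfbi, a matrix gene named for its induction by TGF-beta, had 68.7, 79.6 and 73.5 CPM at D6 and 8.73, 9.51 and 11.5 CPM at D5, a log2 fold change of 2.90 ± 0.15, adjusted p = 1.17e-11. Nodal was among the falls, and its call was lost when any library but D5 library 1 was left out (adjusted p = 0.0502 to 0.102).

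In the Notch pathway 3 of 14 tested genes rose (21.4%, against 18.2% of all genes) and 4 fell (28.6%, against 16.4%). Notch1 had 14.4, 14.6 and 17.4 CPM at D6 and 40.0, 34.4 and 36.5 CPM at D5 (log2 fold change -1.26 ± 0.18, adjusted p = 3.15e-06), while Notch2 rose by 0.28 and Notch4 by 1.73, calls that were both lost without D5 library 2 (adjusted p = 0.0581 and 0.0847). Lfng, a glycosyltransferase that tunes Notch, fell by 1.97, and its relative Mfng had 14 counts over the D6 libraries and none at D5, at least 5.1-fold higher with D5 set at 3 counts over the group. Neither tested Hedgehog readout passed the test, under any alternative tried. Ptch1, the receptor that its own pathway induces, had 43.9, 44.7 and 46.9 CPM at D6 and 39.3, 43.5 and 56.0 CPM at D5, which overlap (adjusted p = 0.929). Hhip had 4.43, 3.98 and 3.49 CPM at D6 and 2.62, 2.24 and 2.32 CPM at D5 (adjusted p = 0.111), and Gli1 had 24 counts over the D6 libraries and 12 over the D5 libraries, too few to be tested. Their ratio scaled to depth was 2.18, with a 95% exact counting interval of 1.05 to 4.79. Of 11 tested pathway components 4 rose (36.4%, against 18.2% of all genes), among them Cdon (a coreceptor, 0.64) and Smo (the transducer, 0.30). Hhat, which attaches palmitate to Hedgehog ligands, rose by 1.23, and Scube2, which helps release them, by 1.00, a call lost without D6 library 2 or D5 library 1 or 2 (adjusted p = 0.0555 to 0.102). Gli3, the main repressor among them, fell by 0.34 (adjusted p = 0.0239), a call lost without D6 library 1 or 2 or D5 library 2 or 3 (0.0532 to 0.11). Of 4 forkhead and related genes tested, Foxc1, Foxc2 and Osr1 fell (75.0%, against 16.4% of all genes), as given above, and Foxf1a did not pass (adjusted p = 0.204).

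Several genes of smooth muscle and of the contractile cytoskeleton were lower at D6. Of 9 tested smooth muscle genes, 5 fell (55.6%, against 16.4% of all genes) and 1 rose (11.1%, against 18.2%), at a median of -0.37. Cnn1 (calponin) had 21.3, 27.7 and 16.01 CPM at D6, against 92.0, 117 and 94.8 CPM at D5, a log2 fold change of -2.22 ± 0.30, adjusted p = 7.31e-05. Tagln (transgelin) fell by 1.74, with only 41.7% of its 50-base stretches unique to it. Myh11 fell by 1.84, and Acta2 did not pass (log2 fold change -0.14, adjusted p = 0.496). Tpm1, a tropomyosin, had 1028, 1235 and 1185 CPM at D6 and 2577, 2662 and 2377 CPM at D5 (log2 fold change -1.14 ± 0.08, adjusted p = 1.98e-10), and Acta1 had 15.9, 24.5 and 29.3 CPM at D6, against 136, 145 and 129.7 CPM at D5 (log2 fold change -2.56 ± 0.17, adjusted p = 2.6e-10). Mylk, myosin light chain kinase, was the exception, at 3.04. Ankrd1, a stretch-responsive muscle gene, had 6.42, 14.6 and 18.5 CPM at D6, against 103, 118 and 88.8 CPM at D5, a log2 fold change of -2.98 ± 0.36, adjusted p = 2.74e-05.

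Many actin and smooth muscle genes are known targets of the factor SRF, which binds the CArG box, a short element with CC and GG around an AT-rich core. Windows were read for Acta1, Acta2, Cnn1, Ankrd1, Cyr61 and Srf, the gene of the factor. Those of Tnnt2, Hcn4, Postn, Plagl1 and Col3a1, which rose, were also read and held no CArG box of the form searched. No window was available for Tagln or Myh11. Boxes were searched only in the strict form CCWWWWWWGG, with W for A or T. The windows of Acta1 and Srf are shown because they held such boxes, and those of Acta2, Cnn1, Ankrd1 and Cyr61 held none. The Acta2 window holds ccctatatgg, a near match that was not counted. Near matches were also present in a window of Tnnt2, which rose (gcttatatgg), and in that of Srf (ctttatatgg). They were not searched for throughout the windows. Cnn1, Ankrd1 and Cyr61 fell by 2.22, 2.98 and 2.09 on the log2 scale, and Srf by 0.63. The windows shown are RefSeq sequence of GRCm38.p6, the 250 bases before the start site. They are given 5′ to 3′ on the gene strand, with CArG boxes in capitals. Acta1 lies at chr8:123894776-123895025 on the minus strand, and Srf at chr17:46556163-46556412 on the minus strand.
Acta1: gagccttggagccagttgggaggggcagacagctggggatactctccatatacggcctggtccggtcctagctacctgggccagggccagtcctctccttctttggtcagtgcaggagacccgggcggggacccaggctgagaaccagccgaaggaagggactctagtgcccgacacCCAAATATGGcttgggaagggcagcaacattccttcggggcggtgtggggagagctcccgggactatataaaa
Srf: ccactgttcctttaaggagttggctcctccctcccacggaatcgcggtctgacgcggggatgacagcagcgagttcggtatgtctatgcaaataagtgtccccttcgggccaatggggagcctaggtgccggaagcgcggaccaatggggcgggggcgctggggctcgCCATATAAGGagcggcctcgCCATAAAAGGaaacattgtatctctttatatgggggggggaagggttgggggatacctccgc
Of 10407 tested genes with such a window, 1.45% held a CArG box of the strict form on either strand. The share was 1.18% of the 1869 genes that rose and 1.96% of the 1685 that fell. A box in a window is a description, and no factor was measured. The letters AGATAA, a site of the factor family of Gata4, were searched on both strands and were in 7.38% of the genes that rose, 6.88% of those that fell and 6.93% of all tested genes.

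Growth-related genes of the imprinted and IGF list were mostly higher at D6. Of 19 tested, 12 rose (63.2%, against 18.2% of all genes) and 2 fell (10.5%, against 16.4%), at a median of 0.77. The list took 3.79% to 3.88% of all counts at D6, against 2.3% to 2.39% at D5. Without Igf2 the shares were 2.58% to 2.68% at D6 and 1.78% to 1.86% at D5. Plagl1, a zinc-finger factor that regulates other imprinted genes in mouse (chr10:13060504-13131694, GRCm38), had 1887, 1714 and 1945 CPM at D6, against 88.0, 101 and 109 CPM at D5. Its log2 fold change was 4.22 ± 0.12, adjusted p = 1.28e-13. Igf2, the fetal growth factor and the top gene of the D6 libraries, had 11835, 11854 and 11810.1 CPM at D6 and 5119, 5076 and 5089 CPM at D5 (log2 fold change 1.22 ± 0.05, adjusted p = 3.84e-16), with 37.9% of its 50-base stretches unique to it. H19 and Dlk1, an imprinted RNA and a Notch-like ligand, rose by 0.87 and 1.71. Igfbp5, an IGF-binding protein, had 926, 721 and 667 CPM at D6, against 58.5, 56.2 and 61.9 CPM at D5 (log2 fold change 3.71 ± 0.22, adjusted p = 2.48e-08). Phlda2 and Igf1r were the exceptions, lower by 1.85 and 0.50.

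Cell adhesion genes showed a split. Cdh1, the epithelial E-cadherin, had 0.459, 1.23 and 0.951 CPM at D6, against 9.17, 9.92 and 9.41 CPM at D5, a log2 fold change of -3.41 ± 0.41, adjusted p = 9.6e-08, and Epcam fell by 1.16, a call lost without D6 library 1 or D5 library 3 (adjusted p = 0.0502 and 0.0565). Cdh11, a cadherin of mesenchyme, had 235, 246 and 272 CPM at D6 and 136, 152 and 166 CPM at D5 (log2 fold change 0.73 ± 0.13, adjusted p = 0.000529), and Cdh3 rose by 0.85. Among the factors of epithelial-mesenchymal transition, Twist2 rose by 1.71 and Snai1 fell by 0.65, a call lost without D5 library 3 (adjusted p = 0.112). The list of 12 gave 4 rises (33.3%, against 18.2% of all genes) and 4 falls (33.3%, against 16.4%). St14, a protease of epithelial surfaces, and Sp6 were among the 15 largest falls, with 1.45 and 1.24 CPM at D6, against 8.97 and 13.0 CPM at D5.

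Lists of other lineages had few tested members. Of 11 neural genes 7 were tested, 3 fell (42.9%, against 16.4% of all genes) and 1 rose (14.3%, against 18.2%). Nes (nestin) had 55.8, 74.4 and 73.5 CPM at D6, against 260.0, 261 and 239.7 CPM at D5 (log2 fold change -1.90 ± 0.12, adjusted p = 4.42e-10), Tubb3 and Zic2 fell by 2.82 and 1.94, and Ncam1 rose by 0.79. Of 12 endoderm genes 5 were tested. Cxcr4, also a gene of early mesoderm, fell by 1.98, Epcam fell, Trf rose by 2.18, a call lost in 4 of the fits without 1 library (without D6 library 1 or 3 or D5 library 2 or 3; adjusted p = 0.0623 to 0.0878), and Sox17 did not pass (adjusted p = 0.534). Both tested genes of paraxial and intermediate mesoderm, Osr1 and Lhx1, fell, and both skeletal muscle genes tested, Actn3 and Myh8, did not pass.

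The other large changes fell outside these groups. Nr2f1 (COUP-TFI, a nuclear receptor of atrial fate) had 26.6, 25.9 and 14.7 CPM at D6, against 1.31, 1.26 and 2.45 CPM at D5, a log2 fold change of 3.72 ± 0.49, adjusted p = 4.43e-05. Slc30a2, a zinc exporter, had 8.87, 16.7 and 14.7 CPM at D6, against 86.3, 88.5 and 78.5 CPM at D5 (log2 fold change -2.65 ± 0.17, adjusted p = 5.23e-12). Pdgfb, a ligand that draws mural cells to vessels, and Alpl, the tissue-nonspecific alkaline phosphatase, fell by 2.51 and 2.55. Chrnb1 and Fam46b fell by 2.57 and 2.65. Islr had no count at D5 and 40 counts over the D6 libraries, at least 14.6-fold higher with D5 set at 3 counts over the group. Hsd3b1 and Ushbp1 had 34 counts each at D6 and none at D5, at least 12.4-fold higher on the same floor. Mybpc2 and Fam81a had no count at D6 and 31 and 15 counts at D5, at least 9.46-fold and 4.58-fold lower.

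Genes for serine and one-carbon metabolism and the ATF4 stress response fell, with 12 of 17 lower and none higher at D6 (median -0.74). The falls were 70.6% of the list, against 16.4% of all genes. Asns, asparagine synthetase, had 82.6, 100.02 and 95.9 CPM at D6, against 189.9, 186 and 178 CPM at D5 (log2 fold change -0.99 ± 0.12, adjusted p = 1.2e-06). Psat1 had 87.5, 103 and 113 CPM at D6 and 245, 229.7 and 196 CPM at D5, a log2 fold change of -1.14 ± 0.11, adjusted p = 1.1e-07, and Shmt2 and Atf5 fell by 0.91 and 1.20. Of the 12, 11 had a higher mean at D7 than at D6, against 47.7% of all genes called lower. At D7, 5 were above their D5 mean, against 7.71% of all genes called lower. The 12 were chosen for low D6 values, which favours a higher mean at D7, and D7 against D6 was not tested. Asns averaged 185 CPM at D5, 92.8 at D6, 199.7 at D7 and 38.6 at D8. Cholesterol synthesis genes gave 8 small falls (47.1%) and 1 rise (5.88%, against 18.2% of all genes) among 17 tested. All 8 that fell were higher at D7 than at D6, against 47.7% of all genes called lower, and they too were chosen for low D6 values. Insig1, Hmgcs1, Fdps and Dhcr7 had log2 fold changes of -0.40, -0.22, -0.32 and 0.19. The Dhcr7 call was lost without any library but D6 library 2 (adjusted p = 0.0505 to 0.321) and with DESeq2, and the Fdps call without D6 library 1 (0.053). Leaving out 1 library gave 3 falls without D6 library 1, 4 without D6 library 2 and 5 without any 1 of the D5 libraries, and none passed at a threshold of 1.5-fold.

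Of 23 glycolysis and low-oxygen genes, 5 fell (21.7%, against 16.4% of all genes) and 1 rose (4.35%, against 18.2%). Slc2a3, a glucose transporter, had 512, 686 and 824 CPM at D6, against 2109, 2172 and 2242 CPM at D5, a log2 fold change of -1.69 ± 0.23, adjusted p = 8.84e-05, and Vegfa fell by 1.19, a call lost without D6 library 1 (adjusted p = 0.0649). Pgam1 fell by 0.50, a call lost without D6 library 1 or 3 (0.0698 and 0.0997), and Pfkm, the muscle phosphofructokinase, rose by 0.44. Oxidative genes gave 4 rises (14.8%) and 2 falls (7.41%) among 27 tested, both below the shares of all genes, with a median of 0. Cpt1a, which admits fatty acids to mitochondria in most tissues, had 1.99, 2.14 and 2.22 CPM at D6 and 0.728, 1.12 and 0 CPM at D5 (log2 fold change 1.76 ± 0.47, adjusted p = 0.00376), and its muscle form Cpt1b fell by 1.95. Fabp3, the heart fatty acid carrier, fell by 1.44, a call lost without D6 library 3 (adjusted p = 0.0589), and Hadha and Ogdh rose by 0.51 and 0.33. Cell-cycle genes changed little, with 5 rises (16.7%) and 1 fall (3.33%) among 30 and a median of 0.08. Mki67, the proliferation marker, averaged 811 ± 59.3 CPM at D6 and 563 ± 44.2 CPM at D5 (SD, n = 3 each; log2 fold change 0.53). The D6 and D5 libraries fitted alone called 11 rises and 4 falls in that list, and a threshold of 1.5-fold called none. Ccnb2, Birc5, Top2a and Pcna, genes of mitosis and replication, had log2 fold changes of 0.52, 0.33, 0.23 and -0.25. The Pcna call was lost without D6 library 1 or 3 or D5 library 1 or 2 (adjusted p = 0.0823 to 0.136).

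D-type cyclins were divided, with Ccnd2 at 261, 297 and 320.2 CPM at D6 and 587, 571 and 528 CPM at D5 and a log2 fold change of -0.94 ± 0.11, adjusted p = 5.24e-06, while Ccnd3 rose by 0.36. The CDK inhibitor Cdkn1a fell by 0.94, Rb1 fell by 0.95, and Cdkn2c rose by 1.01, a call lost without D6 library 1 or 3 or D5 library 2 or 3 (adjusted p = 0.0852 to 0.161). Of 11 tested immediate early genes, 4 fell (36.4%, against 16.4% of all genes) and none rose, against 18.2% of all genes. Myc, the growth factor-induced regulator, had 4.59, 7.66 and 5.55 CPM at D6, against 19.5, 27.7 and 21.1 CPM at D5 (log2 fold change -1.94 ± 0.24, adjusted p = 6.48e-07), and Junb, Atf3 and Fos fell by 1.91, 1.72 and 1.13. The Fos call was lost without D6 library 1 or 3 or D5 library 1 or 2 (adjusted p = 0.0908 to 0.158). Maff and Dusp8, a small bZIP factor and a phosphatase of the JNK pathway, had 1.86 and 2.37 CPM at D6, against 13.0 and 17.5 CPM at D5.

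Levels on later days were compared with both D6 and D5, as a description, since these comparisons share the D6 or D5 libraries with the choice of genes. A partial return to the D5 level also keeps the sign of D7 against D5. Of the 649 genes that rose at least 2-fold, 638 had a higher mean at D7 than at D5 and 447 were higher at D15 than at D6. Of the 510 that fell at least 2-fold, 485 were lower at D7 than at D5 and 317 were lower at D15 than at D5. Among all genes called higher at D6, 57.1% had a still higher mean at D7. Among all genes called lower at D6, 47.7% had a higher mean at D7 than at D6 and 7.71% were above their D5 mean at D7.

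The step was compared with the later 1-day step from D7 to D8, which shares no library with it. The D8 libraries differed from the D7 libraries in 3168 genes (12.6% of those tested higher and 11.6% lower at D8), and 1599 genes were called in both steps, which is 35.2% of the D6 calls and 50.5% of the D8 calls. Of these, 1276 moved the same way and 323 the opposite way. A direct test of the difference between the steps called 2639 genes (20.1%), 661 of them among the 1159 genes that moved at least 2-fold at D6. Mab21l2, which codes for a factor of eye, body wall and heart development, had 116, 118 and 104 CPM at D6, against 5.82, 7.55 and 6.54 CPM at D5 (log2 fold change 4.08 ± 0.12, adjusted p = 2.05e-20), with 66.7% of its 50-base stretches unique to it. From D7 to D8 it moved by 0.48, and the steps differed by 3.59 ± 0.15 on the log2 scale (adjusted p = 3.06e-16). Plagl1 moved by 0.35 from D7 to D8, and the steps differed by 3.87 ± 0.16 (adjusted p = 6.23e-11). Olfml1, an olfactomedin-like secreted gene, moved by 0.40, against 3.70 for D6 over D5, and the steps differed by 3.31 ± 0.25. Tnfrsf12a, the TWEAK receptor, had 1.38, 1.99 and 3.65 CPM at D6 and 20.1, 26.0 and 19.6 CPM at D5 (log2 fold change -3.23 ± 0.25, adjusted p = 3.13e-11), and its steps differed by -3.59 ± 0.36 (adjusted p = 1.5e-08). Dusp8 moved by 0.36 from D7 to D8, and its steps differed by -3.23 ± 0.37.

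**Figure D5:**
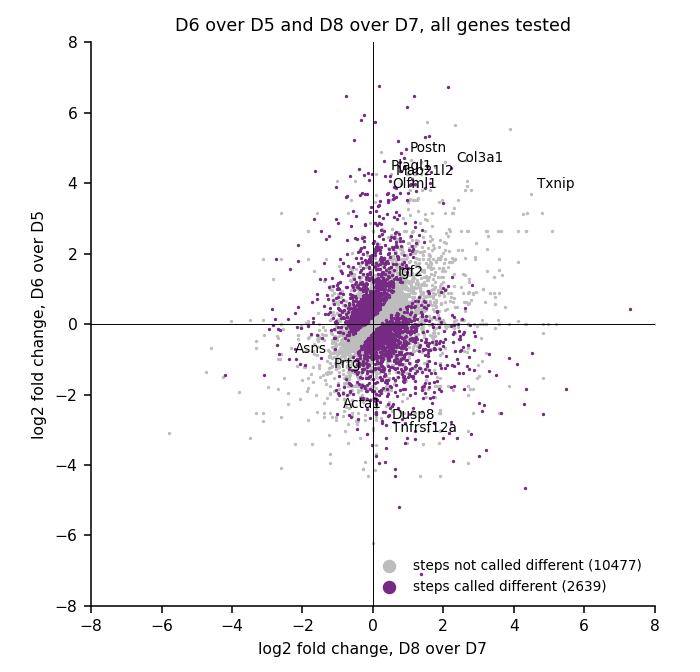
Each point is 1 tested gene, with its log2 fold change from D7 to D8 (D8 over D7) on the x axis and D6 over D5 on the y axis; purple genes differed between the steps in the direct test, and 1 gene lies outside the axes. Plagl1, Mab21l2 and Olfml1 are high on the y axis and near 0 on the x axis, and Tnfrsf12a and Dusp8 are low on the y axis and near 0 on the x axis.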

How the data were processed

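RNA was sequenced from 18 libraries, 3 at each of 6 days, and the 3 D6 and 3 D5 libraries were compared. Alignment with STAR to mm10 is given per the submitters' processing notes; the counting tool, its annotation and its use of strand are not given in the sources used here, although the labels' protocols describe a TruSeq v2 kit. The authors deposited whole-number counts per gene symbol; 3 columns that matched no sample were not used. Columns of a day carry no replicate number, so libraries are numbered in column order only as names.

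Counts were filtered (filterByExpr, minimum count 10), scaled by TMM and fitted with edgeR 4.0.16 (limma 3.58.1, R 4.3.3) on all 18 libraries with day as the factor, with robust quasi-likelihood tests of D6 over D5 and of the difference of (D6 over D5) and (D8 over D7). P-values were Benjamini-Hochberg adjusted over 13116 genes at 0.05. The biological coefficient of variation was 8.27%. Libraries of one day differed beyond counting noise (chi-square over degrees of freedom 2.21 to 3.38), so none was counted once for a repeat. The SE of a fold change was derived from the test statistic. The script was tested on simulated data. DESeq2 1.42.0, limma-voom, other scalings and filters, a 1.5-fold threshold, the D6 and D5 libraries alone and leaving out each library were alternatives. Counting intervals and floors of 3 counts cover counting error only.

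The members and lists were chosen with earlier results of these data known. The rule for the genes named first took the 15 largest rises and 15 largest falls. These were called, did not overlap, were no predicted model and averaged 2 or more in log2 CPM. Of these rises and falls, the 5 with the smallest p for the difference of steps were described for that difference. The rule also took up to 4 members of each list with the smallest p, and members that went against their list. The rule always took a set of heart, timing and Hedgehog genes, and 3 genes each way with no count in a group. Genes outside it are also given, some of them where a count is small. They were chosen after their values were seen, and include Mybpc3, Tnni1, Upk1b, Fn1 and Hoxb6.

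Without stated strand, reads of overlapping genes cannot be told apart. Exons overlap another gene for 69 of the named genes, among them Col3a1, Plagl1, Corin, Mab21l2, Tbx18, Nr2f1, Txnip, Ttn, Eomes, Pou5f1, Bmp4, Wnt11, Fgf10, Tbx3, Lin28a, Hmga2, Lef1, Hoxb5, Igf2 and H19. Fewer than 80% of 50-base stretches are unique for Mab21l2, Sp6, Ccnd1, Spry1, Rarb, Twist2, Tagln, Trf, Pgam1, Cpt1b, Fabp3, Fdps, Igf2, Myh6 and Myh7, so their counts are uncertain. Aldh1a2, Sp6, Sp5, Hcn4, Osr1, Cdh1, Trf and H19 are also older symbols of other genes. Of 23337 symbols, 22832 matched GENCODE M21 and 23116 matched RefSeq. Promoter windows came from RefSeq for 10407 tested genes. CArG boxes were searched only in the strict form CCWWWWWWGG. A few genes of the lists are not reported here by name.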

Additional observations from a re-analysis of the deposited data

How the results depend on the processing

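Of the counts of D6 against D5, only the test against a 1.5-fold threshold moved them beyond 1.5 times, to 923 genes in all, 518 higher and 405 lower at D6. Leaving out 1 library gave 3693 to 3982 genes, 1970 to 2114 higher and 1723 to 1905 lower. For the difference of the steps it gave 2201 to 2498 genes, 1247 to 1433 higher and 954 to 1065 lower. The D6 and D5 libraries alone gave 5080 genes, 2524 higher and 2556 lower, DESeq2 gave 4381 and limma-voom 4533. Of 190 named genes with a call, 129 kept it in all alternatives and 0 reversed. Without the fold threshold and the fit with no filter, 162 kept it. At 6208403 to 7122093 counts a library, genes of a few counts, such as Nkx2-5 and Gli1, were at the limit of detection. No paired analysis was possible because the columns carry no replicate number.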

Other observations

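Lists and genes in this paragraph were chosen after their values were seen, so their counts and values are descriptions. Of 24 target genes of the factors SRF and YAP, 18 fell and none rose by edgeR's quasi-likelihood test, at a median log2 fold change of -0.63. Of all tested genes, 16.4% fell and 18.2% rose. Of 12 tested keratin and epithelial genes, 10 fell and 1 rose (Grhl3, log2 fold change 2.39 ± 0.18, adjusted p = 2.44e-11), at a median of -1.35. Polg, the catalytic subunit of the mitochondrial DNA polymerase, had 169, 171 and 178 CPM at D6, against 522, 529.8 and 585 CPM at D5, a log2 fold change of -1.66 ± 0.06, adjusted p = 7.98e-18. Apoe, a lipid carrier, fell by 1.65, to 68.5 ± 7.43 CPM at D6, against 214 ± 23.5 CPM at D5 (SD, n = 3 each). Nnat (neuronatin, an imprinted gene) and Nr2f2 (COUP-TFII, an atrial and venous regulator) rose by 2.86 and 3.09, and Angpt1 and Cxcl12, ligands that act on vessels, rose by 2.41 and 2.14.

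Txnip and its relative Arrdc4, arrestin-like genes that respond to glucose, alternated by day. Txnip averaged 8.79 CPM at D5, 115 at D6, 16.1 at D7 and 366 at D8. Arrdc4 averaged 1.95 CPM at D5, 17.8 at D6, 2.35 at D7 and 48.6 at D8. The labels used here do not give the days of medium change, and the part of the medium in these values was not tested.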
